A study of Mus musculus with 26 samples.

Results

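A set of 658 H3K4me3 peaks was strong both in Early-B cells and in the progenitors they were made from, and lay away from protein-coding genes. H3K4me3, trimethylation of lysine 4 of histone H3, is a chromatin mark of active and poised gene starts. The peaks were taken from 1 deposited peak list per group, 48054 peaks in Early-B cells and 31414 in progenitors. A peak of the Early-B list entered when its pileup, the read coverage the authors give per peak, was at least 50 and it overlapped a progenitor peak of pileup at least 50. It also had to touch no span of a protein-coding gene and to lie more than 1 kb from every coding gene. Presence in both lists, pileup and distance to coding genes therefore chose the peaks and are not findings about them. All coordinates are mm10.

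Early-B cells came from Ebf1-/- mouse progenitors that received EBF1 through the MigR1-EBF1.ER retroviral vector and spent 2 days on OP9 stroma, a mouse stromal cell line, with 4-O-Hydroxy-tamoxifen, which switches the ER fusion on, and the cytokines IL-7, SCF and FLT3-L. The progenitors were Ebf1-/-, and the sources used here do not give their culture. Both groups therefore lack the endogenous gene, and EBF1 in Early-B cells is the introduced protein. The labels name 2 H3K4me3 and 2 input DNA samples per group but the lists hold no value per sample, so no replicate error could be set beside any difference and no test between the groups was made. A peak at a gene end was present for 8 of 8 early B marker genes among Early-B peaks and for 4 of 8 among progenitor peaks, and Pax5, Igll1 and Blnk were among those that had it in Early-B cells alone. Stromal markers had an end peak for 6 of 8 genes in Early-B and 2 of 8 in progenitors, while Dcn and Lum had none in either. OP9 cells are mouse cells, and the part of stromal chromatin in the Early-B peaks was not tested. T cell markers had an end peak for 5 of 6 genes in each list. Myeloid markers had one for 1 of 6 in Early-B and 3 of 6 in progenitors, and stem cell markers for 4 of 6 and 6 of 6. All these marker counts take peaks of any strength, such as Col3a1 in Early-B with a −log10 p of 1.25. The Early-B list also holds more peaks than the progenitor list. The share of all coding genes with an end peak of any strength in each list was not computed.

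RNA polymerase II start sites of long noncoding RNA (lncRNA) genes carry H3K4me3 as those of coding genes do. Many lncRNA genes serve as hosts whose introns or exons hold small RNAs, such as snoRNAs that guide the modification of ribosomal RNA, or microRNAs that repress messenger RNAs through a short seed. Transfer RNA (tRNA) genes and a few other small RNA genes are copied by RNA polymerase III, and active tRNA genes in mammals lie in chromatin with marks of active promoters. A pseudogene is a copy of a gene that has lost its function, and a processed pseudogene arose when a messenger RNA was copied back into the genome without its promoter.

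The microRNAs at these peaks show how far 1 peak can stand for several products. There were 21 microRNA genes within 1 kb of 10 of the 658 peaks, and the RefSeq table (GRCm38.p6) held 37 mature sequences for 20 of them. The mature sequences below come from the Mir17 cluster on chromosome 14 and the related Mir106a cluster on chromosome X, each at a single peak. Capitals mark the seed, bases 2 to 8 from the 5′ end, and sequences with the same seed stand together.

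mmu-miR-17-5p: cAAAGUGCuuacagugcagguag
mmu-miR-20a-5p: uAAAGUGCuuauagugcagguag
mmu-miR-106a-5p: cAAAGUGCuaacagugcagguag
mmu-miR-20b-5p: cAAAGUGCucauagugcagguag

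mmu-miR-18a-5p: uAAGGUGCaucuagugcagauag
mmu-miR-18b-5p: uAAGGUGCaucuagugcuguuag

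mmu-miR-19a-3p: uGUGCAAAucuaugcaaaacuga
mmu-miR-19b-3p: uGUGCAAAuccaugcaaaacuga

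mmu-miR-92a-3p: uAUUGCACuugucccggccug
mmu-miR-363-3p: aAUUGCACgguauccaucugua

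Across the mature sequences taken, without Mir1949, 6 seeds occurred at more than 1 locus, and in each case the loci were these clusters. let-7i and miR-22 stood alone at their peaks, with seeds found at no other peak in this comparison.

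mmu-let-7i-5p: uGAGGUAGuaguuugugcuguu
mmu-miR-22-3p: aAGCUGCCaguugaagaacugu

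The next sequences are windows of 300 bases around lncRNA start sites covered by a peak, from 250 bases before to 50 bases after the start, read 5′ to 3′ on the gene's strand (RefSeq, GRCm38.p6). They were chosen from the named genes to span the range of CpG content, since CpG-rich starts are the usual places of H3K4me3, and capitals mark each CG. Snhg5, which hosts snoRNAs, lies at chr9:88522848-88523147 on the minus strand and Dleu2, the host of miR-15a and miR-16-1, at chr14:61682324-61682623 on the minus strand. Malat1, an abundant nuclear RNA, lies at chr19:5802623-5802922 on the minus strand, Morrbid, a regulator of the lifespan of myeloid cells, at chr2:128429302-128429601 on the minus strand, and Mir17hg at chr14:115044140-115044439 on the plus strand.

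Snhg5: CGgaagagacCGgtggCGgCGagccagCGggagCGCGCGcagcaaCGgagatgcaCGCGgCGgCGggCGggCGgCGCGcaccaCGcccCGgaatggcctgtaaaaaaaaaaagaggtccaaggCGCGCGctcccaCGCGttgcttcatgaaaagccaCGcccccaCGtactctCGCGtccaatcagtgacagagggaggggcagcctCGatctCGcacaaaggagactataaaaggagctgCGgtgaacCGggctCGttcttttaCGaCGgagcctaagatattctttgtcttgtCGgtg

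Dleu2: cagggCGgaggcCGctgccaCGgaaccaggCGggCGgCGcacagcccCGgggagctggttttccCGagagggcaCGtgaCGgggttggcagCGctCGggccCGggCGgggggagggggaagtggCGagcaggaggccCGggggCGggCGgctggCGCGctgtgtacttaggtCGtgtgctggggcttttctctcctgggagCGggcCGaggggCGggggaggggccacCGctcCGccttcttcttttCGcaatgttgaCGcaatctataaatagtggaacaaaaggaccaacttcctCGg

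Malat1: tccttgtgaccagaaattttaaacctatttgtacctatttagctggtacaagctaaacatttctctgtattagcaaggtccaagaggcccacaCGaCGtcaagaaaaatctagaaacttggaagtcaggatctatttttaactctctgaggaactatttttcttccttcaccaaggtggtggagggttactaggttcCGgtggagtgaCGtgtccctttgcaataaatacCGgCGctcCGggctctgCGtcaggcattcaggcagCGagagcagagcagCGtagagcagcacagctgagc

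Morrbid: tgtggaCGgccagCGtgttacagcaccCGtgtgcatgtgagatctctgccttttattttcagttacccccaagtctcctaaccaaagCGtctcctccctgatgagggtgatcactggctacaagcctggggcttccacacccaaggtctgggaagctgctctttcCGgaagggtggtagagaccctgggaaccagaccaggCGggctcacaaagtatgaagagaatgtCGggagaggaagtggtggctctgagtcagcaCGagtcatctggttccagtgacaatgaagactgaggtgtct

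Mir17hg: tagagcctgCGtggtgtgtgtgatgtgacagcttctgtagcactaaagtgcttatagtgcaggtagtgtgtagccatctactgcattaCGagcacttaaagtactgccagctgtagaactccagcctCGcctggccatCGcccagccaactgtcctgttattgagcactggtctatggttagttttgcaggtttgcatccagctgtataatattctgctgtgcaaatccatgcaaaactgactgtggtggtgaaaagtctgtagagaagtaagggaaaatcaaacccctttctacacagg

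The window of Snhg5 held 36 CG pairs, that of Dleu2 29, Malat1 10, Morrbid 8 and Mir17hg 4. The observed over expected CpG ratio, which corrects the number of CG pairs for base composition, was 1.26 for Snhg5, 0.86 for Dleu2, 0.60 for Malat1, 0.36 for Morrbid and 0.24 for Mir17hg. The Mir17hg window is not a start upstream of the cluster: its letters contain the mature miR-20a-5p, miR-20a-3p, miR-19b-1-5p and miR-19b-3p, so the table places this start inside the cluster. The peak there begins at 115038740, upstream of every base of that window.

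Both lists together held 9480 strong shared Early-B peaks, of which 7896 lay at coding gene ends, 926 inside coding genes and 658 far from them. The far peaks were a part of 1600 strong Early-B peaks far from coding genes. Of the rest, 535 met a progenitor peak of pileup below 50 and 407 met no progenitor peak. The 658 peaks met 666 strong progenitor peaks, 8 of them meeting 2, and for 5 the progenitor peak itself reached to within 1 kb of a coding gene. Median pileup was 78.88 in Early-B and 93.95 in progenitors, against an Early-B median of 127.97 for the peaks at coding ends. Pileup, fold enrichment and p are the authors' own values for each peak, and they describe a peak within its list and do not measure change between lists. The median distance to the nearest coding gene was 16.4 kb, with 246 peaks (37.4%) within 10 kb and 9 beyond 500 kb. Among the 136 peaks within 5 kb, the nearest coding end was a gene start for 53 and a 3′ end for 54, and no strand was given for 29.

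Far peaks lay at noncoding genes or pseudogenes more often than the other strong shared peaks did. A noncoding gene or pseudogene end stood within 1 kb of 362 of 658 peaks, 55.0% (exact binomial 95% interval 51.1 to 58.9%, counting error only), where the share over all strong shared peaks was 21.7%. Without pseudogenes the share was 42.9%, and without genes of Gm or LOC name it was 27.1%. The full share was 19.3% of the 7896 peaks at coding ends and 18.8% of the 926 inside coding genes. Among Early-B peaks far from coding genes that were shared but not strong in both lists it was 24.6% of 6095, and among those absent from the progenitor list 8.90% of 14331. These sets differ in peak width, which bears on how often a peak comes near a gene: median Early-B width was 2503 bp for the 658 peaks, 3366 bp at coding ends, 1208 bp for the weaker shared far peaks and 683 bp for the Early-B-only far peaks.

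lncRNA ends were near 235 of the 658 peaks (35.7%), against 14.9% of peaks at coding ends and 15.0% inside coding genes. Pseudogene ends were near 91 (13.8%), against 1.67% and 2.70% in the same sets. tRNA genes were near 49 (7.45%), against 0.570% and 0.324%. Other small RNA genes were near 37 (5.62%), against 3.15% and 1.19%. A peak may count under several of these, and 22 peaks lay at both an lncRNA and a tRNA end. With each peak placed once, in the order tRNA, other small RNA, lncRNA and pseudogene, 49 were at tRNA genes, 36 at other small RNA genes, 194 at lncRNA genes, 80 at pseudogenes, 3 at antigen receptor segments and 46 inside a noncoding gene but at none of its ends. The remaining 250 peaks (38.0%) had no annotated gene. The classes follow the table, which lists Mx2, Rnls, Hyi, Atp10d and Magef1 as transcribed pseudogenes and Trmt61b as an lncRNA.

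**Figure D1:**
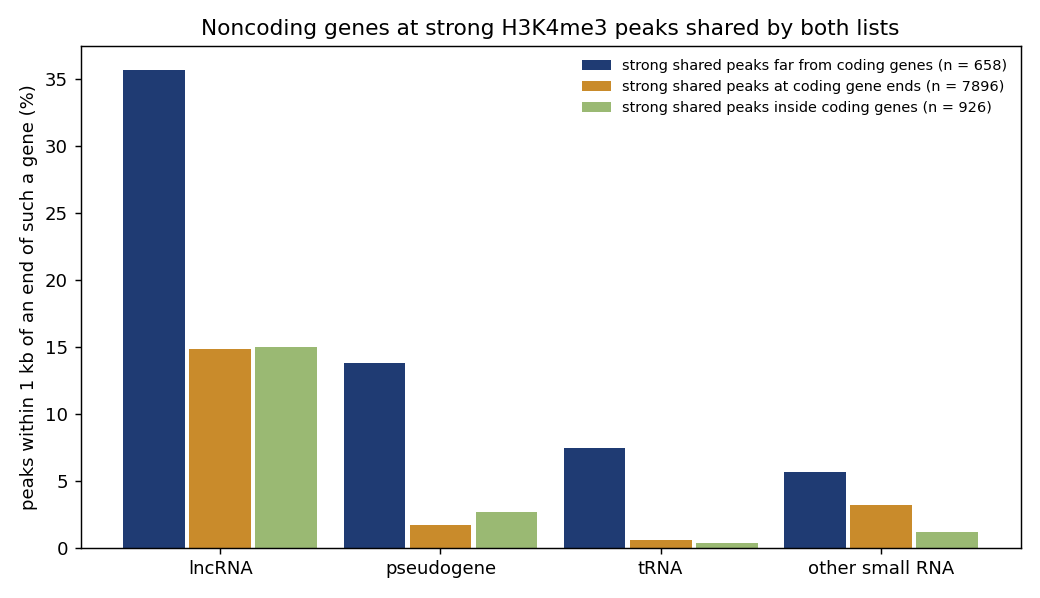
Share of peaks (y axis, percent) within 1 kb of an end of an lncRNA gene, pseudogene, tRNA gene or other small RNA gene (x axis), for strong shared peaks far from coding genes, at coding gene ends and inside coding genes. The far peaks have the highest bar in each of the 4 kinds, from 35.7% for lncRNA genes to 5.62% for other small RNA genes.

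Most peaks at an lncRNA end covered a start where starts are known. These peaks were chosen for lying near either end of a gene, and peaks inside a gene away from its ends were classed apart. The count therefore does not compare starts with the rest of the gene, and no expected share was computed. Of the 235 peaks at an lncRNA end, 191 had an lncRNA in the RefSeq promoter table, and 149 of these (78.0%) covered a start. Counting starts anywhere, 152 of the 658 peaks covered 189 starts of 164 lncRNA genes. The centre of the peak lay downstream of 133 of 189 starts (70.4%), with a median offset of 326.5 bp. Strong shared peaks at coding ends gave a like picture over 8494 coding starts, 72.6% centred downstream with a median offset of 326 bp. Of 257 lncRNA genes at the peaks, 220 carried only a Gm, LOC or Rik name, so most have no descriptive name.

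The lncRNA starts under these peaks were closer in base composition to coding starts than to other lncRNA starts. Neither comparison set was limited to starts under a peak. Some of the 189 windows overlap, because a gene can have several listed starts a few bases apart. Their 300 base windows had a median of 11 CG pairs, against 4 at 11397 other lncRNA starts and 13 at 21254 coding starts. An observed over expected CpG ratio above 0.6 was found for 75 of 189 (39.7%), against 13.6% of other lncRNA starts and 47.6% of coding starts. The GC box GGGCGG, read on either strand, stood in 86 windows (45.5%), against 15.8% of other lncRNA and 46.2% of coding starts, and it contains a CG itself. The ETS core CCGGAAGT was in 4.76%, against 1.53% and 5.15%, and it too contains a CG. TATAAA was in 15.3%, against 15.5% and 12.6%. CCCNNGGG, a spelling of the EBF1 site that reads the same on both strands, was in 30 windows (15.9%), against 9.99% of other lncRNA starts and 15.6% of coding starts, and over all 32841 windows the share was 13.7%. Of the printed windows, that of Dleu2 held CCCNNGGG, TATAAA and GGGCGG, Snhg5 held TATAAA and GGGCGG, and Malat1, Morrbid and Mir17hg held none of the 4 motifs. A match is a description of letters and shows no binding.

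Of 93 named noncoding genes in 6 lists, 88 were in the gene table and 26 had one of the 658 peaks at an end. Another 41 had an end peak in both lists outside this set. Whether a weaker peak, a coding neighbour or a lack of overlap kept each one out was not examined. Dnm3os and Hotair had an end peak only among Early-B peaks, Mir124a-1hg and Miat only among progenitor peaks, and 17 had none.

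Hosts of snoRNAs gave the largest number of named genes, though not the largest share of a list. Of 21 in the table, 8 had a far peak, namely Snhg3, Snhg4, Snhg5, Snhg7, Snhg15, Snhg17, Snhg20 and Dancr, 11 had end peaks in both lists outside the set, and 2 had none. The Snhg3 peak (chr4:132350125-132354595) was 4471 bp wide with a pileup of 162.63 in Early-B, and 3332 bp with 212.12 in progenitors. At Snhg5 (chr9:88520325-88524244) the peak measured 3920 bp with a pileup of 145.73 in Early-B and 3895 bp with 194.18 in progenitors, nearly the same width. Snhg17 (chr2:158358093-158362327) differed more, 4235 bp in Early-B and 2489 bp in progenitors. Dancr, which holds Snora26 and is known for keeping cells undifferentiated, had 3008 bp in Early-B and 3341 bp in progenitors. The Snhg7 peak also took in Snora17 and Snora43, and the Snhg4 peak Snora74a. Early-B pileup over the 8 host peaks lay between 112.34 at Snhg4 and 162.63 at Snhg3.

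Hosts of microRNAs gave 3 of 14 genes: Mir17hg, Mir22hg and Dleu2. The peak at the Mir17 cluster (chr14:115038740-115046018) was 7279 bp wide in Early-B and 7089 bp in progenitors, with pileups of 89.37 and 131.97. The miR-17 family promotes survival of developing B cells through repression of the death gene Bim, in mice. The peak at Mir106a (chrX:52742481-52747949) was wider in Early-B, 5469 bp against 2541 bp in progenitors, with pileups of 54.5 and 78.93. It reached the end of the Mir106a gene, while the other microRNAs of that cluster lay within 1 kb of its edge. The Dleu2 peak was 8832 bp wide in Early-B and 4738 bp in progenitors, with pileups of 126.2 and 203.99. At Mirlet7i (chr10:122982454-122988950), source of a let-7 microRNA, widths were 6497 bp in Early-B and 4495 bp in progenitors. At Mir22hg (chr11:75457868-75463986) they were 6119 bp in Early-B and 3608 bp in progenitors. These 5 peaks were wider in the Early-B list, as were 74.8% of all far peaks with 1 partner. A peak at Mir203 (chr12:112129172-112131835), known for its role in skin, measured 2664 bp in Early-B and 1274 bp in progenitors. The peak at Mir760 (chr3:122292426-122294866) also held an arginine tRNA gene and had the highest pileups of all tRNA peaks, 195.01 in Early-B and 241.12 in progenitors.

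Structural RNAs gave 7 of 16 genes, and the other 9 had end peaks in both lists outside the set. Malat1 (chr19:5794263-5807372) had one of the widest peaks, 13110 bp in Early-B and 10525 bp in progenitors, with pileups of 168.54 and 206.74, and it covered the whole gene. Terc, the RNA template of telomerase, had a peak (chr3:96413338-96415952) of 2615 bp and pileup 122.61 in Early-B, and 1743 bp and 181.56 in progenitors. The remaining 5 are RNA polymerase III genes: Rn7sk, which holds the elongation factor P-TEFb inactive, Rn7s2, an RNA of the signal recognition particle, the Y RNAs Rny1 and Rny3, and the vault RNA Vaultrc5. Rn7sk measured 2855 bp in Early-B and 1983 bp in progenitors. Rn7s2 went the other way, with 4214 bp in Early-B and 5285 bp in progenitors. Early-B pileups of these 5 ran between 76.91 at Rny3 and 104.94 at Vaultrc5.

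Genes of a list from the X chromosome and other lincRNAs followed. Jpx, an activator of Xist, and Firre, an RNA that shapes nuclear architecture, were 2 of 5 on the X list. Jpx had a pileup of 72.8 in Early-B and 142.31 in progenitors. None of 8 imprinted noncoding RNAs had a far peak, with 4 of them at end peaks in both lists outside the set and 4, H19, Meg3, Rian and Mirg, at no end peak at all. Among 24 named lincRNAs, 6 had a far peak: Pvt1, Oip5os1, Norad, Trp53cor1, Lncpint and Morrbid. The Pvt1 peak (chr15:62037302-62041210) lay 46.9 kb from Myc, the gene Pvt1 is known to neighbour and regulate, and its pileup was 132.5 in Early-B and 119.11 in progenitors. Trp53cor1, a target of p53, lay 8.25 kb from Cdkn1a, another p53 target, and measured 7211 bp in Early-B and 6670 bp in progenitors. Morrbid had a pileup of 101.71 in Early-B and 73.24 in progenitors. Lncpint, also induced by p53, had 7645 bp in Early-B and 8226 bp in progenitors, and Oip5os1 had 2769 bp in Early-B and 3073 bp in progenitors. Pvt1, Norad, Trp53cor1 and Morrbid were wider in the Early-B list by at most 1.08-fold, so these lincRNA peaks had nearly one width in both lists.

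Further lncRNA peaks are given as examples. The highest Early-B pileup at an lncRNA gene with fold enrichment above 2 was at 6530402F18Rik (chr2:29250938-29253991), with 204.27 in Early-B and 241.06 in progenitors. Chaserr, which restrains expression of its neighbour Chd2, had a peak of 9884 bp in Early-B and 9939 bp in progenitors (chr7:73550585-73560468), 1 of 4 far peaks next to Chd2. Kantr, a neighbour of Kdm5c, had a peak of 4273 bp in Early-B and 1703 bp in progenitors. Dubr, a regulator of muscle differentiation, had 2030 bp in Early-B and 2110 bp in progenitors. These 4 were named after their values had been seen.

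tRNA genes often shared a far peak with each other. Of 408 tRNA genes placed in the genome, 111 (27.2%) lay within 1 kb of 49 of the 658 peaks, and 189 lay at any strong shared peak. A peak of any strength was near 271 of them in Early-B and 273 in progenitors, with 267 near peaks of both lists and 131 near a peak of neither. The tRNA genes at far peaks carried 19 of 20 amino acids and 37 of 48 anticodons among the 402 genes whose names give them. There were 22 peaks with 1 tRNA gene and 27 with more, up to 7. Chromosome 13, which holds large tRNA and histone gene clusters, had 13 of the 49 peaks with 33 of the 111 genes.

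The 3 peaks with 7 tRNA genes each were among the widest. One at chr13:21166627-21174017 was 7391 bp wide in Early-B and 7643 bp in progenitors. Another at chr13:23429423-23439331 was 9909 bp wide in Early-B and 10079 bp in progenitors. The peak at chr19:12003889-12014226 was 10338 bp wide in Early-B and 8964 bp in progenitors, the one of the 3 that was wider in Early-B. On chromosome 1, a stretch of tRNA genes near the Fc receptor gene Fcgr4 held peaks such as chr1:171032975-171039944, with 6970 bp in Early-B and 6376 bp in progenitors. Early-B pileup over the 49 peaks had a lowest value of 50.01, a median of 87.03 and a highest of 195.01, and progenitor pileup 63.86, 160.99 and 241.12. Pileup chose the peaks, and these values only describe them.

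By amino acid, leucine genes were most often at far peaks in number, 15 of 25, and phenylalanine genes in share, 5 of 7. Proline followed with 9 of 16, then glutamate with 8 of 20 and tyrosine with 4 of 10. Tyrosine genes were at a strong shared peak of any position in 9 of 10 cases. Few cysteine genes were near a peak, with 1 of 56 at a far peak and 51 at no Early-B peak. No tryptophan gene of 8 was at a far peak, serine had 2 of 22 and glutamine 2 of 16. tRNA genes that lie close together share a peak, so the counts are not independent.

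**Figure D2:**
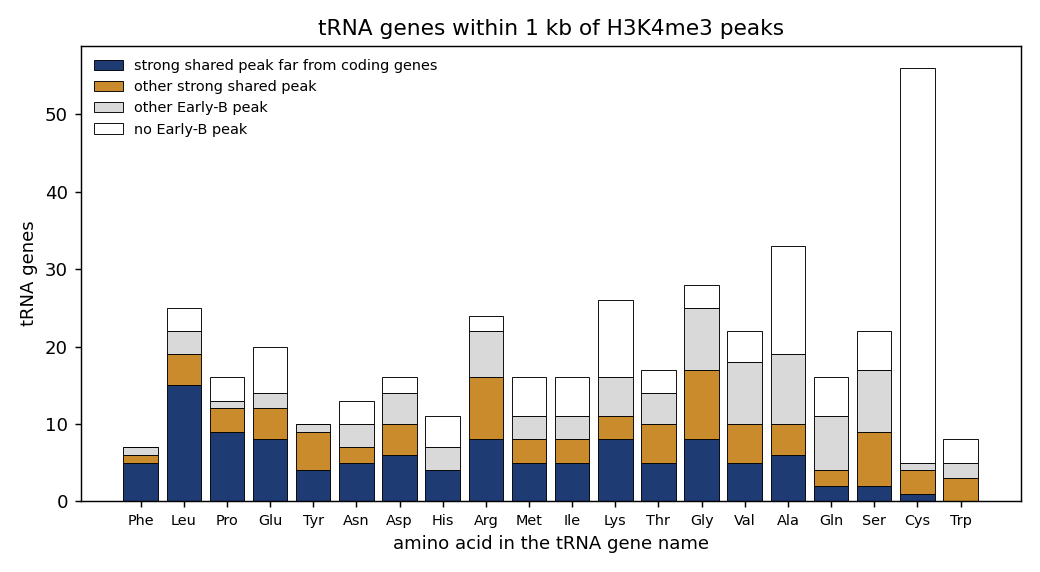
Number of tRNA genes (y axis) by amino acid in the gene name (x axis, ordered by the share at far peaks), split by the kind of Early-B H3K4me3 peak within 1 kb. Leucine has 15 of 25 genes at far peaks, while 51 of 56 cysteine genes have no Early-B peak.

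Pseudogene peaks split by width. Of 50 peaks whose pseudogenes were all without evidence of transcription in the table, 37 (74%) were under 1000 bp wide in Early-B, against 4 of 30 at transcribed pseudogenes, 0 of 194 at lncRNA genes, 23 of 250 with no annotated gene and 11 of 7896 at coding ends. Their median width was 619.5 bp in Early-B and 577.5 bp in progenitors, against 2803.5 bp and 1919.5 bp at transcribed pseudogenes. A median of 80.3% of each narrow peak lay inside the pseudogene itself. Widths of narrow pseudogene peaks were within 10% of each other in both lists for 25 of 37, against 180 of all 658 (27.4%), and the median Early-B over progenitor ratio was 0.994. The peak at Gm10698 (chr9:33728102-33728571) measured 470 bp in Early-B and 470 bp in progenitors, with pileups of 100.59 and 132.60, and lay 757 kb from any coding gene.

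The source genes of named pseudogenes had strong peaks of their own. Of 94 distinct pseudogenes at far peaks, 16 carry the name of a coding gene in the table, and no source gene was looked up for the others. Each of the 16 has a source gene, 15 genes in all, with an end peak of pileup 50 or more in both lists. Among all 21896 coding genes the share was 42.7%, but that set was not matched to the source genes for expression. The pileup at the source gene was above that at the copy for 13 of 16 in each list. Coding-end peaks in general had the higher Early-B median pileup, 127.97 against 78.88 for the far peaks. The peak taken for a copy lay within 1 kb of it, and that of Rpl31-ps7 did not overlap the copy. Source genes had pileups of 89.6 to 241 in Early-B and 95.3 to 230 in progenitors. Impdh2-ps, a copy of a gene of guanine nucleotide synthesis, had a 379 bp peak in Early-B with a pileup of 51.17, and 383 bp with 65.95 in progenitors, while Impdh2 had pileups of 166.74 in Early-B and 216.35 in progenitors. Kansl2-ps had 542 bp and 72.74 in Early-B, and 515 bp and 83.82 in progenitors, while Kansl2, a subunit of a histone acetyltransferase complex, had pileups of 140.54 in Early-B and 201.61 in progenitors. Other copies with a peak under 1000 bp in Early-B were those of Rpl10a, Got2, Mif, Pcna, Ctdsp2, Anp32b, Ppp1r2 and Rybp. A copy and its source are alike in sequence, and the placing of reads that match both is unknown, so the pileup at these pseudogenes is uncertain. The copies above their source were Pisd-ps1, Pisd-ps2 and Gpr137b-ps, all listed as transcribed.

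**Figure D3:**
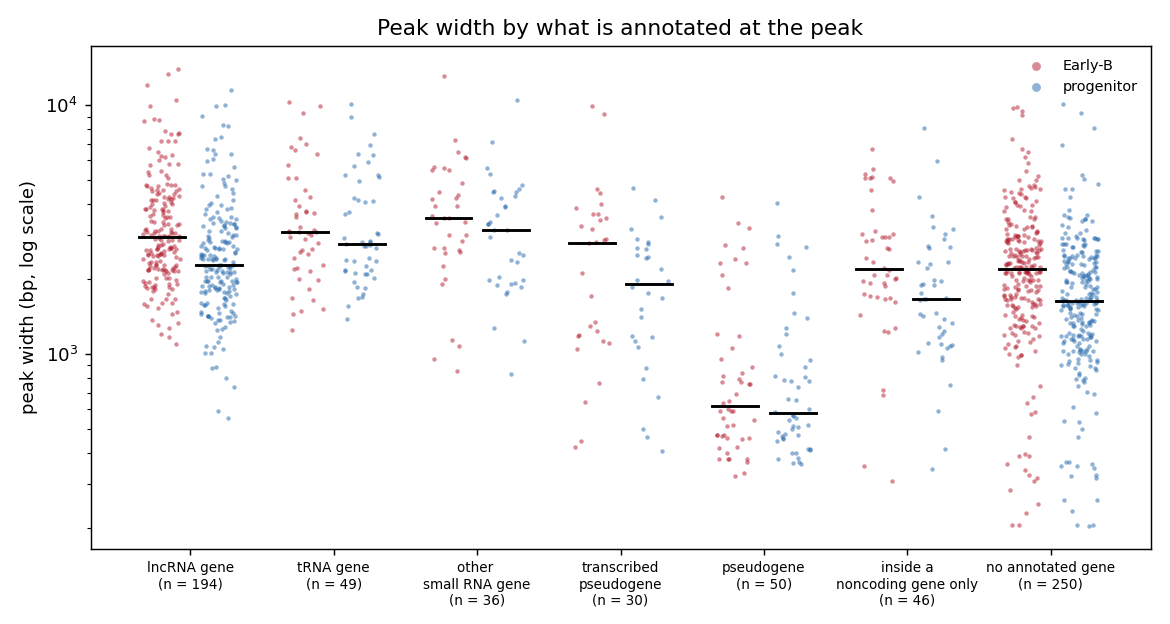
Peak width (y axis, bp, log scale) for each far peak in both lists, by what is annotated at the peak (x axis), with points for peaks and black lines for medians. Peaks at pseudogenes with no listed transcription sit lowest, with medians of 619.5 bp in Early-B and 577.5 bp in progenitors.

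Antigen receptor loci held 4 far peaks, since their segments are not listed as protein-coding genes. The strongest of the 4 lay over the Igh joining segments and Ighm (chr12:113419974-113432343), the part of the heavy chain locus where recombination starts. It was 12370 bp wide with a pileup of 245.54 and fold enrichment of 28.6 in Early-B, and 9424 bp with 351.54 and 35.3 in progenitors. Another Igh peak (chr12:114378503-114379780) measured 1278 bp in Early-B and 1759 bp in progenitors. In T cell receptor loci, a peak at Trgc2 and Trgj2 (chr13:19302885-19312492) measured 9608 bp in Early-B and 8971 bp in progenitors, and one at Trav13-5 (chr14:53794601-53796132) 1532 bp in Early-B and 1116 bp in progenitors. The peaks at Ighm and at Trgc2 were thus the wide ones in both lists. The table places no segment end at the other Igh peak.

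The 250 peaks with no annotated gene had a median pileup of 73.78 in Early-B and 81.68 in progenitors, values that the threshold of 50 truncates. Their median width was 2193.5 bp in Early-B and 1628.5 bp in progenitors. Leaving aside peaks of high background described further on, the highest Early-B pileup among them was 190.98 at chr1:86486629-86489222, with 168.90 in progenitors. A peak 3.62 kb from Ebf1 (chr11:44610976-44614477) was 3502 bp wide in Early-B and 1124 bp in progenitors, with pileups of 66.23 and 94.59. One 27.0 kb from Aff3 (chr1:38657155-38666255) was broad in both, 9101 bp in Early-B and 10144 bp in progenitors. One 178 kb from Klf7 (chr1:64300421-64306912) was 6492 bp wide in Early-B and 1575 bp in progenitors. The first 2 of these were named after their values had been seen.

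Far peaks were more often broader in the Early-B list than other strong shared peaks were. Among 650 peaks with a single strong progenitor partner, 152 (23.4%) were at least 1.5 times as wide in Early-B, where the share over all strong shared peaks was 11.8%. Only 17 (2.62%) were at least 1.5 times as wide in progenitors, where the share over all strong shared peaks was 2.67%. The median Early-B over progenitor width ratio was 1.18, against 1.09 at coding ends, and 486 peaks (74.8%) were wider in Early-B by any amount. A width depends on depth and on the caller's threshold in each list, and its part in these shares was not tested. Pileup moved with the share: it was 29.5% for far peaks of Early-B pileup 50 to 75, 21.3% for 75 to 100, 16.1% for 100 to 150 and 11.1% for 150 or more. Coding-end peaks in the same ranges had 17.7%, 22.9%, 9.18% and 3.98%, so far peaks had the higher share in 3 of the 4 ranges and the lower one between 75 and 100.

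The classes differed in this measure. Peaks inside a noncoding gene had 15 of 46 at least 1.5 times as wide in Early-B (32.6%), unannotated peaks 70 of 246 (28.5%) and lncRNA peaks 46 of 191 (24.1%). Other small RNA peaks had 7 of 36 (19.4%), pseudogene peaks 11 of 79 (13.9%) and tRNA peaks 3 of 49 (6.12%). The widest peaks of this kind were at lncRNA genes. AU020206 (chr7:75778011-75792013) measured 14003 bp in Early-B and 2827 bp in progenitors, with pileups of 59.03 and 144.41. The peak over starts of Gm52833 and Gm15411 (chr5:148955378-148968664) measured 13287 bp in Early-B and 2192 bp in progenitors. Its progenitor partner, from 148958543 to 148960734, covered the Gm15411 start at 148959901 and not the Gm52833 start at 148955794. Gm4258, 156 kb from the leukocyte gene Ptprc, was broad in both lists, 12034 bp in Early-B and 9977 bp in progenitors. The largest width ratio, 10.4 at chr16:3113801-3117189, came with a fold enrichment of only 1.38 in Early-B and 1.52 in progenitors. In the other direction, Gm26698 (chr12:86890766-86897923) had 7158 bp in Early-B and 11465 bp in progenitors, the widest of the progenitor peaks. A peak 2.13 kb from Ncf1, a subunit of the phagocyte oxidase, had 2674 bp in Early-B and 9262 bp in progenitors. The peak at Gm15441 beside Txnip, a regulator of glucose uptake, had 3180 bp in Early-B and 9050 bp in progenitors, and that at the valine tRNA gene n-TVcac8 1515 bp in Early-B and 5218 bp in progenitors.

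**Figure D4:**
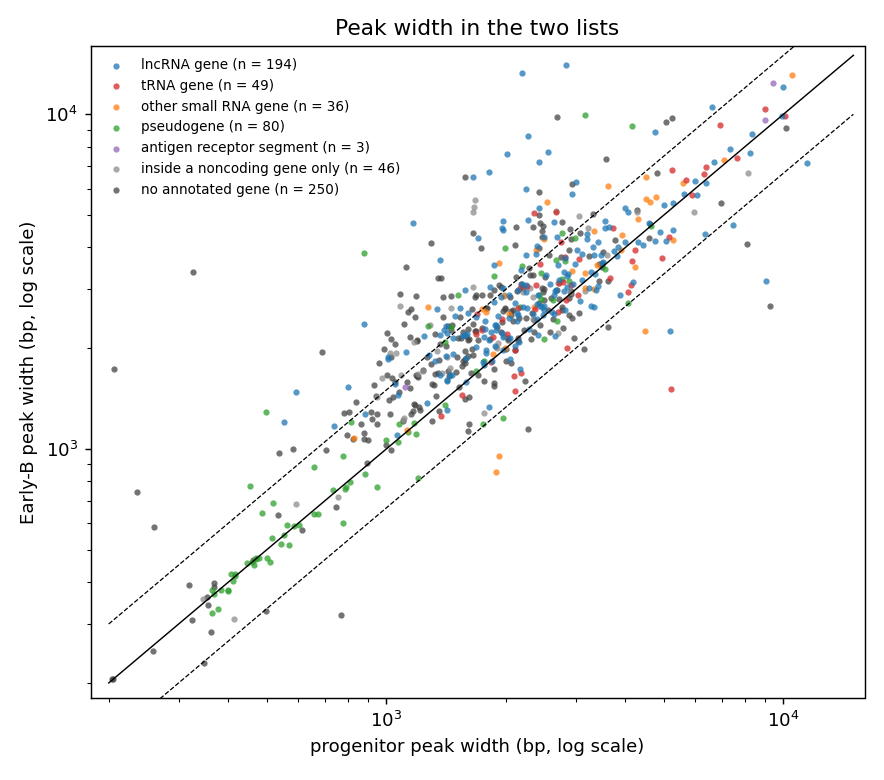
Width of each far peak in the Early-B list (y axis) against its strong progenitor partner of highest pileup (x axis), both in bp on log scales, coloured by class. The solid line marks equal width and the dashed lines a ratio of 1.5 either way; 152 of 650 peaks with a single partner lie on or above the upper dashed line and 17 on or below the lower one.

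The highest pileups in the set belonged to regions where the comparison signal was high as well. Pileup divided by fold enrichment was taken as an approximate background, since the exact way the caller computed fold is not given. It exceeded the 99th percentile of all strong shared Early-B peaks, 13.7, at 50 of the 658 peaks (7.60%), where the share over all strong shared peaks is 1% by construction (95 of 9480). In the progenitor list 52 exceeded their own percentile of 10.5, and 48 did so in both lists. Of the 50, 30 had no annotated gene, 8 were at lncRNA genes, 8 at pseudogenes and 4 inside a noncoding gene. All 11 far peaks with an Early-B pileup of 300 or more were among them. Fold enrichment was low at part of them, between 1.16 and 1.72 at 16 peaks. In all, 4 far peaks in Early-B and 5 in progenitors had q above 0.05 despite a pileup of at least 50.

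The top of the pileup ranking shows the range. The highest Early-B pileup, 765.72 at chr12:74804281-74804599, had a fold of 1.17, and its progenitor pileup of 1212.97 a fold of 1.06. A peak of ribosomal RNA sequence, Rn18s-rs5 (chr17:39843031-39848810), had a pileup of 326.54 and a fold of 1.19 in Early-B, and 381.66 and 1.18 in progenitors. By contrast, 27 of the 50 had a fold of 5 or more. The 4 peaks of highest pileup on chromosome 8, between 19783025 and 20426452, lay at Gm10060, 6820431F20Rik and 2610005L07Rik or, for 1 of them, at no annotated gene. They had pileups of 612.30 to 657.12 with folds of 15.4 to 16.98 in Early-B, and 421.13 to 469.56 with 23.2 to 27.3 in progenitors. Other unannotated ones were chr19:61198612-61200979, with 591.03 in Early-B and 1272.85 in progenitors, and chr1:195241423-195242550, with 569.22 in Early-B and 1020.11 in progenitors. Pisd-ps2 had 412.13 in Early-B and 422.15 in progenitors.

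**Figure D5:**
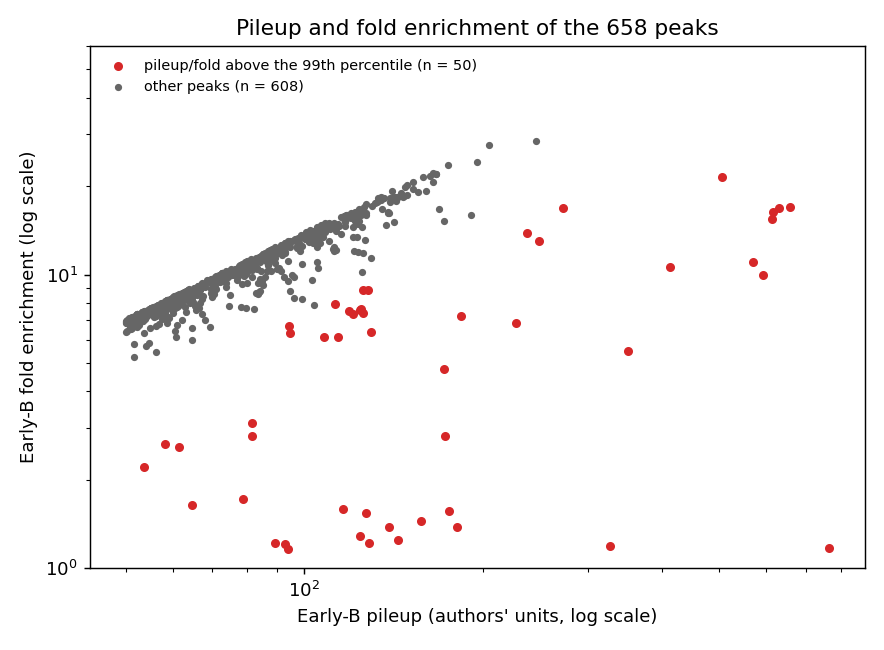
Fold enrichment (y axis, log scale) against pileup (x axis, authors' units, log scale) of each of the 658 peaks in the Early-B list, with the 50 of high background in red. Most peaks follow 1 line, while the red points lie to its right, with pileups up to 765.72 at a fold of 1.17.

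Some far peaks came in arrays. On chromosome 6, 8 peaks followed each other between 47739585 and 47773007 with starts 3723 to 6410 bp apart, and the Y RNA genes Rny3 and Rny1 came next. The 8 peaks were 1268 to 2271 bp wide with pileups of 94.6 to 125.58 in Early-B, and 1154 to 1764 bp with 238.86 to 319.79 in progenitors. Their background was also high, 14.2 to 18.6 in Early-B and 24.7 to 33.5 in progenitors. In all, 59 of the 658 peaks lay within 10 kb of another, and 7 of 596 coding neighbours had 3 or more, among them Mid1 with 5 in the Erdr1 region of chromosome X, Chd2 with 4 and Tbc1d1 with 3.

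The threshold cut through a continuous range of pileups. Just inside, the peak at chr10:111030968-111032486 had pileups of 56.27 in Early-B and exactly 50 in progenitors, and the one at chr1:171077721-171081449 had 50.01 in Early-B and 152.35 in progenitors. Just outside were pairs such as 49.93 in Early-B with 57.24 in progenitors, and 50.26 in Early-B with 49.84 in progenitors. The most remote peaks lay at Gm5088 on chromosome 14, 1427 kb from a coding gene, at Gm9726 and Mir8099-2 on chromosome 12, 1033 kb away, and on chromosome 1 at 29737219, 957 kb away, the last with no annotated gene and widths of 250 bp in Early-B and 258 bp in progenitors.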

How the data were processed

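H3K4me3 was measured by ChIP-seq, and 1 peak list each from Early-B cells and Ebf1-/- progenitors was used; samples of other assays and of Early-T cells were not analysed here. The builds GRCh38 and mm10 and the tools MACS 1.4.3 and Bowtie 1.1.2 appear, without roles, per the submitters' processing notes. The sources used here do not give settings, use of input or pooling of replicates. The columns are those of a later MACS version, so the version is unsure. Pileup is a coverage signal and fold enrichment a ratio over local background, per the file headers. Deposited columns 6 and 8 have damaged names; going by value ranges and order, the 6th was taken as −log10 p and the score in the 8th as −log10 q. Peak length in bp was deposited by the authors. No read depths were given, so the depth behind a peak is unknown.

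Peaks were joined by at least 1 bp of overlap and placed on a RefSeq gene table (GRCm38.p6, the mm10 assembly) with 21896 coding and 28097 noncoding genes. A gene end means either end of its span. Classes were given in the order tRNA, other small RNA, lncRNA, pseudogene. Width ratios used the 650 peaks with 1 strong partner, 1.5 marking a difference. Sequences and start windows (none from chromosome 18) came from RefSeq tables. With 1 list per group no test was made; intervals are exact binomial at 95%.

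Regions were named by rule: the 10 highest pileups and 5 widest per list, the 5 largest and 5 smallest width ratios, the 5 nearest the threshold on each side, the 5 most remote, and every peak at a gene of 6 noncoding lists. Not all are described. Peaks at tRNA and microRNA genes, pseudogenes, antigen receptor loci and arrays were named after their values were seen. The members and lists were chosen with earlier results of these data known. There were 27 alternatives. Scripts were checked on simulated lists; the software was scipy 1.17.1, pandas 2.3.3, numpy 2.4.6 and matplotlib 3.10.9 under Python 3.11.15.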

Additional observations from a re-analysis of the deposited data

How the results depend on the processing

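No paired analysis was possible because there is 1 list per group with no replicate numbers, and leaving out a replicate was not possible for the same reason. The number of peaks, 658, was 294 at a pileup of 75 or more, 412 when more than 10 kb from coding genes, and 244 where both lists gave q up to 0.01 and fold 10 or more. It stayed within 1.5-fold under a pileup of 40 (937), equal numbers of top peaks per list (626), reciprocal overlap (587) and a distance of 5 kb (522). The share at a noncoding gene end, 55.0%, was 66.7% within 5 kb, 42.9% without pseudogenes, 27.1% without genes of Gm or LOC name, and 61.9% at a pileup of 75 or more. The share at least 1.5 times as wide in Early-B, 23.4%, was 8.46% for a ratio of 2, and by Early-B pileup, a split added after seeing the data, 29.5% for 50 to 75, 16.1% for 100 to 150 and 11.1% for 150 or more. The share wider in progenitors, 2.62%, was 1.08% for a ratio of 2. The share of high background, 7.60%, was 14.1% with the 95th percentile. The other 14 of the 27 alternatives moved a count by less than 1.5-fold or a share by less than its interval. No depth was given, so weak signal below the threshold in either list cannot be told from its absence.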
